A study of Homo sapiens with 6 samples.

Results

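The NF-κB transcription factor is built from the subunits RELA, RELB, REL, NFKB1 and NFKB2, and is held in check or redirected by the IκB proteins NFKBIA, NFKBIB, NFKBIE, NFKBIZ and BCL3. These 10 genes were taken by symbol from a table of 30267 genes, and all 10 were present. They were described in 6 bulk RNA-seq libraries of SW839, an established renal cell carcinoma (RCC) line. In 3 libraries (shRNF25) the cells carried a short hairpin RNA against RNF25, an E3 ubiquitin ligase, and in 3 libraries (shControl) they carried pLKO, the lentiviral control vector. The study asked what RNF25 does in RCC cells, with RNF25-dependent NF-κB activity as its subject. According to the methods of the study, stable lines were made by lentiviral infection and puromycin selection, so that both groups share the vector backbone and the drug. All shRNF25 libraries share the name of a single hairpin, shRNF25B, and a second hairpin was not analysed here. The names of the shControl libraries all begin with PLKO but do not form a numbered series, for a reason not given in the labels used here. The treatment text is the same for every sample and mentions the hairpin plasmid for the controls as well, so that the groups rest on the genotype labels, titles and library names. The series calls the libraries biological triplicates but does not say whether they came from separate infections, and the p-values measure the spread between these libraries only. Any batch of preparation aligned with the groups and the effect of the hairpin cannot be told apart.

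NF-κB works as a dimer. RELA (p65), RELB and REL (c-Rel) carry a transactivation domain, whereas NFKB1 (p105) and NFKB2 (p100) are precursors that are processed to the DNA-binding subunits p50 and p52. The cytoplasmic inhibitors NFKBIA (IκBα), NFKBIB (IκBβ) and NFKBIE (IκBε) retain dimers outside the nucleus until the IKK kinases mark them for ubiquitination and proteasomal degradation, and NFKBIA is a classic NF-κB target gene whose product ends the response. NFKBIZ (IκBζ) and BCL3 act inside the nucleus, where they bind p50 or p52 dimers and modify transcription.

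Several of these genes are known to be under the control of NF-κB itself, and the letters around their start sites are therefore shown first. The κB consensus, the 10-letter motif that NF-κB dimers bind, was searched on both strands from 250 bases before to 50 bases after each annotated start in RefSeq (GRCh38.p14). Of the 10 genes, 8 had a promoter in the RefSeq table, with 14 promoters in all, and RELB and NFKBIE had none. The motif was found in 9 of the 14 promoters and in 7 of the 8 genes, with RELA the exception. It was found in 11.3% of all 35116 promoters. That share is per promoter and not per gene, and the share of all genes with a match was not computed. A match is a description of the letters and not evidence of binding. A window around 1 match per gene is given below, 5′ to 3′ on the strand of the gene, with the match in capitals. Where a gene had several matches, the most upstream is shown.
REL: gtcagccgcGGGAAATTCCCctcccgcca
NFKB1: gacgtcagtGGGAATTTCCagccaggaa
NFKB2: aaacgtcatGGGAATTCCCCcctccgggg
NFKBIA: gactggcttGGAAATTCCCcgagcctga
NFKBIB: ggcgtggtgGGGAATTTCCCgcagggcgg
NFKBIZ: ttttggtctGGGAATTTCCagtgtgcag
BCL3: cggctgcagGGGAAGTCCCggcgcccgg

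The NFKBIA match lay at chr14:35404821-35404830, 81 to 72 bases before the start of this minus-strand gene. The REL match lay at chr2:60881527-60881537 (plus strand), 47 to 37 bases before the start, and the NFKB1 match at chr4:102501310-102501319 (plus strand), 49 to 40 bases before it. In REL, NFKB2 and NFKBIB overlapping matches on the 2 strands formed a run of 11 bases. The NFKB2 run was at chr10:102394471-102394481 (plus strand), 107 to 97 bases before the start of its RefSeq promoter 2. The NFKBIB run was at chr19:38899941-38899951 (plus strand), 28 to 18 bases before the start of its promoter 2. Promoter 1 of both genes, farther upstream, held 0 matches. All distances are to RefSeq starts. The REL, NFKB2, NFKBIB and BCL3 matches lie within the gene bounds given for these genes below. The NFKBIZ match was at chr3:101827767-101827776 (plus strand), 223 to 214 bases upstream, while the BCL3 match was at chr19:44748710-44748719 (plus strand), 2 to 11 bases after the start. Of the 7 genes with a match, REL, NFKBIA, NFKBIZ and BCL3 passed the test for a lower level in shRNF25, described below, and NFKB1, NFKB2 and NFKBIB did not. RELA, without a match, did not pass. Of RELB and NFKBIE, which had no promoter to search, NFKBIE passed. Among all tested genes 10.8% passed as lower, and the share among all genes with a match was not computed. A link between match and change was not tested.

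The reads counted on genes numbered between 18647460 and 19943154 per library. Log2 values correlated between 0.976 and 0.987 among the shControl libraries and at 0.994 for each pair of shRNF25 libraries, so that the control group was the more variable one. RNF25, the targeted gene, had normalized counts of 694, 534 and 536 in shControl 1, 2 and 3 and of 214, 246 and 265 in shRNF25 1, 2 and 3, with a mean at 41.1% of control. Its log2 fold change was −1.27 (standard error, SE, 0.150, limma adjusted p = 0.000585). RNF25 shares 260 exonic bases (11.2% of its exonic length) with STK36 on the opposite strand, whose mean was 795 in shControl and 1183 in shRNF25, and without the strand setting reads in that stretch cannot be assigned. The epithelial genes KRT8, KRT18, KRT19 and EPCAM were abundant in every library, PAX8 averaged 127 and 94.0 in shControl and shRNF25, and the RCC marker CA9 was low, at 7.74, 12.3 and 50.7 in shControl and at 8.20, 1.85 and 4.77 in shRNF25. Of the 12 kidney and RCC markers listed 10 were in the table, and their summed level ranged from 71281 to 90292 in shControl and from 80824 to 84556 in shRNF25. The sum is set by the keratins, and within it VIM rose (log2 fold change 1.31, limma adjusted p = 0.00805) and KRT19 fell (−0.47, limma adjusted p = 0.0278). Leukocyte markers, of which 6 of 7 were in the table, summed to between 59.7 and 73.9 in shControl and between 66.7 and 95.7 in shRNF25, and the T cell marker CD3E had at most 3 reads in any library. Of the leukocyte markers ITGAM rose from a mean of 21.1 to 39.6 (limma adjusted p = 0.0465). The part of these markers in the results below was not tested.

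Levels below are the deposited normalized counts, which are reads divided by a scaling factor of the library. That factor was between 0.905 and 0.975 in shControl and between 1.05 and 1.10 in shRNF25. A higher factor gives a lower normalized count from the same reads, and scaling to total reads was not tried. Fold changes are on the log2(normalized count + 1) scale, shRNF25 minus shControl. A gene was called when its adjusted p (limma over 16554 tested genes, Benjamini-Hochberg) was below 0.05. All 10 genes passed the filter on low values. In shRNF25 the transcripts of NFKBIA, NFKBIZ, BCL3, NFKBIE and REL fell, which is 5 of the 10 genes, and none rose. Among all tested genes 10.8% were called lower, 10.5% called higher and 21.3% called in either direction. At an unadjusted p below 0.05, 7 of the 10 were lower and 0 higher, where 18% and 17.3% of all tested genes were, and edgeR and DESeq2 on the recovered reads also called 0 higher. The median log2 fold change over the 10 genes was −0.49, against −0.01 over all tested genes. In bulk RNA, fewer cells with a transcript and less of it per cell cannot be told apart. These libraries measure RNA, and protein levels are not described here.

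**Figure D1:**
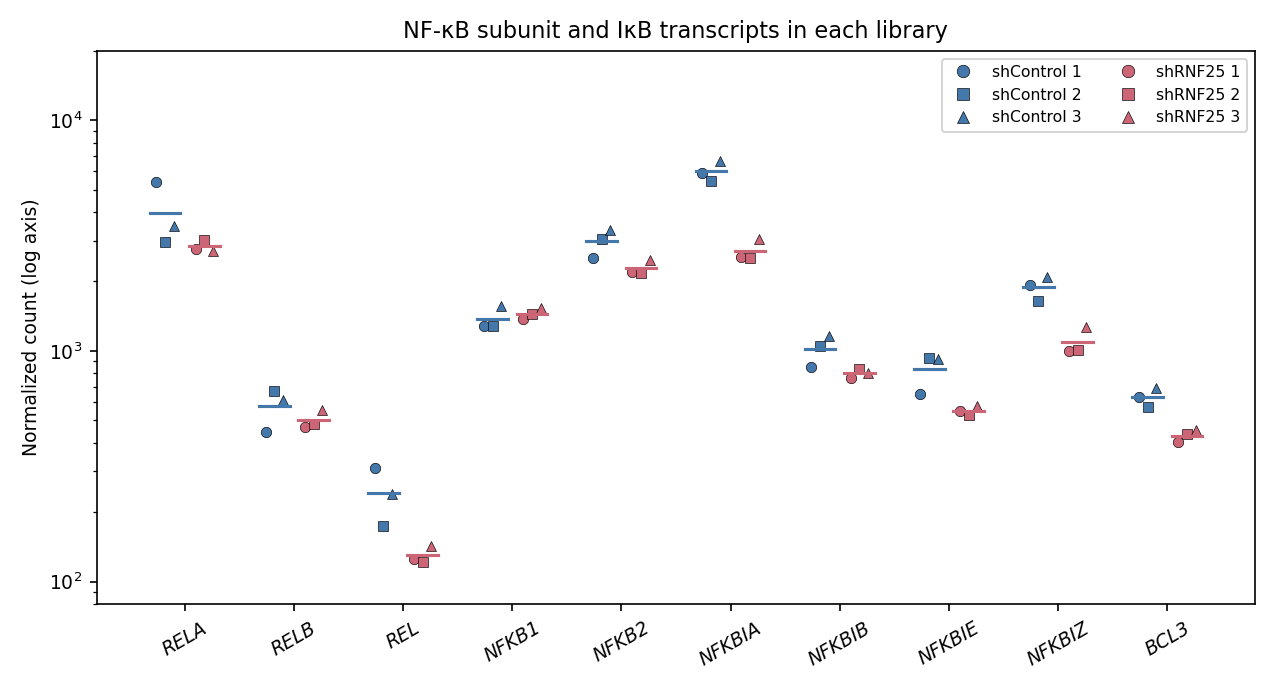
Normalized count (vertical axis, logarithmic) of each of the 10 genes in the 3 shControl and the 3 shRNF25 libraries, with 1 point per library and a bar for the group mean. The groups do not overlap for NFKBIA, NFKBIZ, BCL3, NFKBIE, REL, NFKB2 and NFKBIB and overlap for RELA, RELB and NFKB1.

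NFKBIA, which lies on chromosome 14 from 35401511 to 35404749 (minus strand, GRCh38, GENCODE 29), was the most abundant of the 10 genes per length and had the largest fall among them. Its normalized counts were 5903, 5454 and 6625 in shControl and 2549.5, 2521 and 3042 in shRNF25. All shRNF25 libraries lay below all shControl libraries, and the means were 5994 ± 590.4 (SD, n = 3) and 2704 ± 292.6 (SD, n = 3). The shRNF25 mean was 45.1% of that in control. On the log2 scale the difference was −1.15 (SE 0.12, 95% interval −1.42 to −0.88, limma adjusted p = 0.000328). Between groups of 3 a two-sided exact permutation test cannot give less than 0.1, the value obtained for NFKBIA and for each of the other 6 genes without overlap. NFKBIA was called under every alternative tried, with log2 fold changes from −1.24 to −1.01.

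NFKBIE, the IκBε inhibitor on chromosome 6 from 44258166 to 44265788 (minus strand), was measured at 651, 929 and 925 in shControl and at 548, 529 and 574 in shRNF25. The groups did not overlap, and shControl 1 was the lowest of the controls. The mean fell from 835 ± 159 to 550.2 ± 22.4 (SD, n = 3 each), or to 65.9% of control, with a log2 fold change of −0.58 (SE 0.152, limma adjusted p = 0.0252). The call was lost with shControl 2 left out (adjusted p = 0.0804), with shControl 3 left out (0.0589) and with any of the shRNF25 libraries left out (0.105, 0.108 and 0.0855 without shRNF25 1, 2 and 3), while the log2 fold change was −0.50 without shControl 2 or 3 and −0.58, −0.55 and −0.61 without shRNF25 1, 2 and 3.

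NFKBIB, the IκBβ inhibitor on chromosome 19 from 38899700 to 38908893 (plus strand), had normalized counts of 855, 1048 and 1161 in shControl and of 762, 838 and 803 in shRNF25. Every shRNF25 library was below every control, but the closest control, shControl 1, was nearly level with shRNF25 2. The log2 fold change of −0.34 (95% interval −0.64 to −0.04) did not pass (limma adjusted p = 0.0999). Without shControl 1 it was −0.46 (adjusted p = 0.00286). NFKBIB and SIRT2 overlap by 40 exonic bases on opposite strands, 1.72% of the exonic length of NFKBIB, and whether reads were counted by strand is not given in the sources used here. Of the transcripts of the 3 cytoplasmic inhibitors, then, 2 fell and 1 was not called, and all 3 had non-overlapping groups. Groups did not overlap, with shRNF25 lower, for 7 of the 10 genes and for 21.8% of all tested genes, and with shRNF25 higher for none of the 10 and for 20.7% of all.

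NFKBIZ, the nuclear IκBζ on chromosome 3 from 101827991 to 101861022 (plus strand), was measured at 1927, 1641 and 2096 in shControl and at 1000.5, 1005 and 1269.6 in shRNF25. The lowest control was above the highest shRNF25 library. The mean fell from 1888 ± 230.2 to 1092 ± 154 (SD, n = 3 each), or to 57.8% of control, with a log2 fold change of −0.79 (SE 0.138, 95% interval −1.10 to −0.48, limma adjusted p = 0.00417). Like NFKBIA, NFKBIZ was called under every alternative tried, between −0.90 and −0.70.

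BCL3, a nuclear partner of p50 and p52 on chromosome 19 from 44747705 to 44760044 (plus strand), had normalized counts of 628, 569 and 689.7 in shControl and of 401, 434 and 452 in shRNF25. The groups were separate and each was tight, with means of 629 ± 60.1 and 429 ± 25.8 (SD, n = 3 each). The log2 difference was −0.55 (SE 0.122, limma adjusted p = 0.0126), a mean of 68.2% of control. BCL3 was no longer called with an shRNF25 library left out (adjusted p = 0.0825, 0.0658 and 0.0534 without shRNF25 1, 2 and 3), while the log2 fold changes were −0.50, −0.56 and −0.59. Both nuclear IκB proteins fell, with a median log2 fold change of −0.67.

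Among the subunits with a transactivation domain, REL fell and RELA and RELB were not called. REL, which encodes c-Rel on chromosome 2 from 60881521 to 60931610 (plus strand), was the least abundant of the 10 genes, with 280, 169 and 223 reads in shControl and 138, 132 and 149 in shRNF25. The normalized counts were 309.5, 173 and 241 in shControl and 126, 122 and 142 in shRNF25. The groups did not overlap, but the controls ranged widely, with a coefficient of variation of 28.2% against 8.22% in shRNF25. The log2 fold change was −0.85 (SE 0.208, 95% interval −1.32 to −0.38, limma adjusted p = 0.0193), with a mean of 53.9% of control. Without shControl 1 it was −0.65, and without shRNF25 1, 2 or 3 it was no longer called (adjusted p = 0.0879, 0.0849 and 0.0573) at log2 fold changes of −0.83, −0.81 and −0.92. Of the exonic length of REL, 43.3% overlaps the noncoding gene AC010733.2 on the same strand, and reads in that stretch could have been split between the genes or left uncounted.

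RELA, the p65 subunit on chromosome 11 from 65653596 to 65663094 (minus strand), was measured at 5387, 2966 and 3490.4 in shControl and at 2763, 3035 and 2712 in shRNF25. The groups overlapped, because shControl 2 lay below shRNF25 2, and shControl 1 stood well above all other libraries. The control mean was 3948 ± 1273 and the shRNF25 mean 2836 ± 174 (SD, n = 3 each). The log2 fold change of −0.43 (SE 0.195, 95% interval −0.87 to 0.01) did not pass (limma adjusted p = 0.148; two-sided exact permutation test p = 0.2). Without shControl 1 the log2 fold change was −0.18.

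RELB, the subunit that pairs with p52 in the noncanonical pathway, lies on chromosome 19 from 45001430 to 45038198 (plus strand). Its normalized counts were 444, 667 and 615 in shControl and 467, 483 and 553 in shRNF25. Here shControl 1 was the lowest of all 6 libraries, the reverse of RELA, and the groups overlapped. The log2 fold change was −0.18 (95% interval −0.55 to 0.19, limma adjusted p = 0.466). Without shControl 1 it was −0.36 and passed (adjusted p = 0.022).

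The precursor subunits NFKB1 and NFKB2 were not called. NFKB1, which encodes p105 and p50 on chromosome 4 from 102501329 to 102617302 (plus strand), had normalized counts of 1282, 1279 and 1561 in shControl and of 1376, 1443 and 1532 in shRNF25. The shRNF25 libraries all lay within the range of the controls, and NFKB1 was the only one of the 10 genes with a log2 fold change above 0. Its log2 fold change was 0.08 (SE 0.117, limma adjusted p = 0.651), and the 95% interval from −0.18 to 0.35 leaves room for a small change in either direction.

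NFKB2, which encodes p100 and p52 on chromosome 10 from 102394110 to 102402529 (plus strand), was measured at 2534, 3052 and 3352 in shControl and at 2199.6, 2180.4 and 2466 in shRNF25. The groups did not overlap, with shControl 1 just above shRNF25 3. The log2 fold change of −0.38 (SE 0.126, 95% interval −0.66 to −0.09) narrowly missed the threshold (limma adjusted p = 0.0627). DESeq2 on the recovered reads called NFKB2 (log2 fold change −0.37, adjusted p = 0.0486), as did limma without shControl 1 (−0.49, adjusted p = 0.00209).

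**Figure D2:**
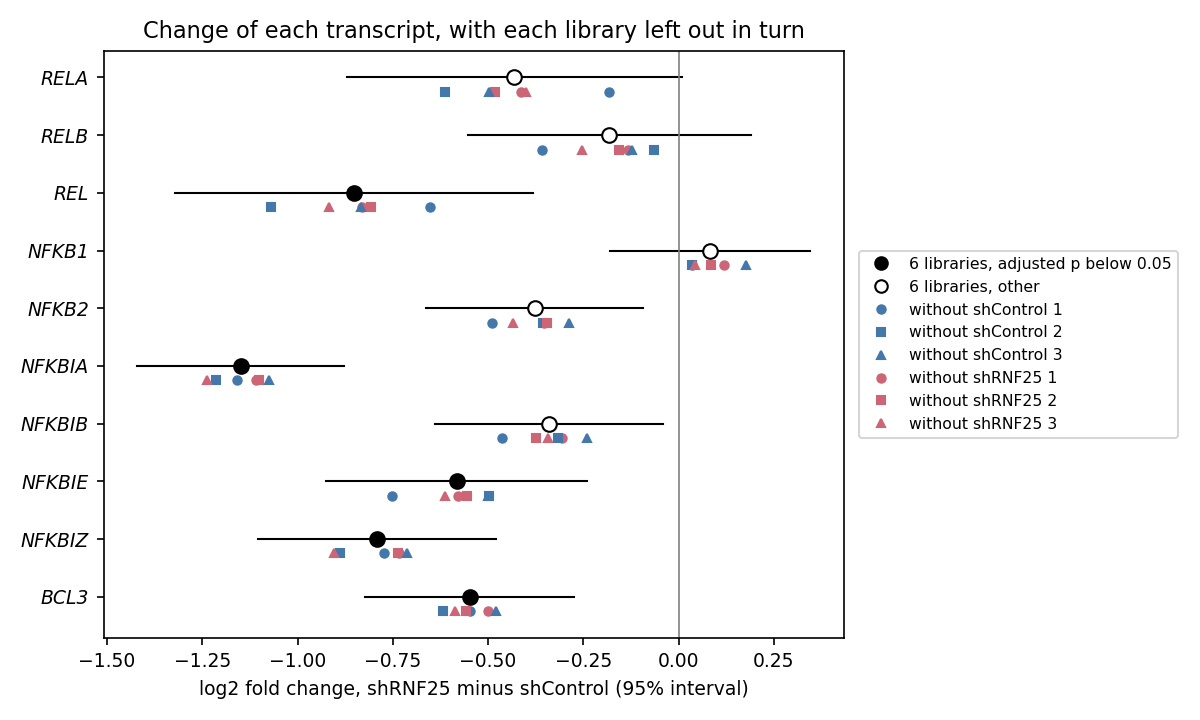
Log2 fold change of each gene, shRNF25 minus shControl (horizontal axis), with its 95% interval from limma. Filled points passed the test (NFKBIA, NFKBIZ, BCL3, NFKBIE and REL) and open points did not, and the intervals of RELA, RELB and NFKB1 include 0.

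The study's fold criterion of at least 1.5, applied together with the adjusted p, kept 3 of the 5 lower genes, NFKBIA, NFKBIZ and REL. NFKBIE lay at the edge of this criterion, with a log2 fold change of −0.58 from limma, which missed it, and of −0.59 from DESeq2 (adjusted p = 0.00483), which met it. In limma the criterion kept 7.1% of all tested genes as lower and 8.65% as higher, and none of the 10 genes as higher. Leaving out 1 library moved the number of lower genes among the 10 between 2 and 8. It was 8 without shControl 1, 4 without shControl 2 or shControl 3, and 2 (NFKBIA and NFKBIZ) without any of the shRNF25 libraries. For all tested genes the number of lower calls, 1785 with every library, was 2915, 1370 and 1918 without shControl 1, 2 and 3 and 826, 839 and 829 without shRNF25 1, 2 and 3.

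To compare levels between genes, normalized counts were divided by the length of all annotated exons in kilobases. In shControl NFKBIA was highest at 2526 ± 249 per kilobase (SD, n = 3), above RELA at 723 ± 233. RELA and NFKB2 (664) were not separated by their ranges. NFKBIB followed at 439, then NFKBIE and NFKBIZ at 323 and 319.9, whose ranges overlapped. NFKB1 at 219.6, BCL3 at 194 and RELB at 189.6 formed the next tier and also overlapped. REL was lowest at 18.3 per kilobase. In shRNF25 the first 4 places and the last were the same, with NFKBIA at 1139.5, RELA at 519, NFKB2 at 509, NFKBIB at 345 and REL at 9.86 per kilobase. NFKB1 moved up to the fifth place at 232, ahead of NFKBIE at 213, though their ranges overlapped. Normalized counts per kilobase of the longest coding transcript gave the same order for the first 4 genes and for REL, and another order between them.

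Inhibitor and subunit transcripts were compared as a ratio of levels per kilobase within each library, which does not depend on the scaling of the library. These ratios were chosen as descriptions and were not tested. The ratios of the cytoplasmic inhibitors to RELA were planned, and NFKBIA per NFKB1 was added to them. NFKBIA per NFKB1 was 12.1, 11.2 and 11.2 in shControl and 4.89, 4.61 and 5.24 in shRNF25, with no overlap. NFKBIA per RELA was 2.52, 4.23 and 4.37 in shControl and 2.12, 1.91 and 2.58 in shRNF25. Here shControl 1, the library with the high RELA, lay just below shRNF25 3, so that the groups overlapped. NFKBIB per RELA averaged 0.662 in shControl and 0.664 in shRNF25, and NFKBIE per RELA 0.493 and 0.412. Both ratios overlapped between the groups as well, so that no inhibitor was set apart from RELA by its ratio. The ratio of NFKB1 to RELA was 0.208, 0.377 and 0.390 in shControl and 0.435, 0.415 and 0.493 in shRNF25, without overlap.

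Within the transcripts of the cytoplasmic inhibitors the mix shifted away from NFKBIA. NFKBIA made up 76.8% ± 3.07 of their summed level per kilobase in shControl and 67.0% ± 2.06 in shRNF25 (SD, n = 3 each). NFKBIB went from 13.3% to 20.4% and NFKBIE from 9.84% to 12.6%, and the libraries of the 2 groups did not overlap for any of the 3 shares. Within the 5 subunits NFKB1 had a larger share in shRNF25, 16.1% against 12.1%, and REL a smaller one, 0.687% against 0.999%, both without overlap. The shares of RELA, RELB and NFKB2 overlapped between the groups. A share rises when other members of the class are lower, as for NFKBIB, whose own level was not higher in shRNF25.

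**Figure D3:**
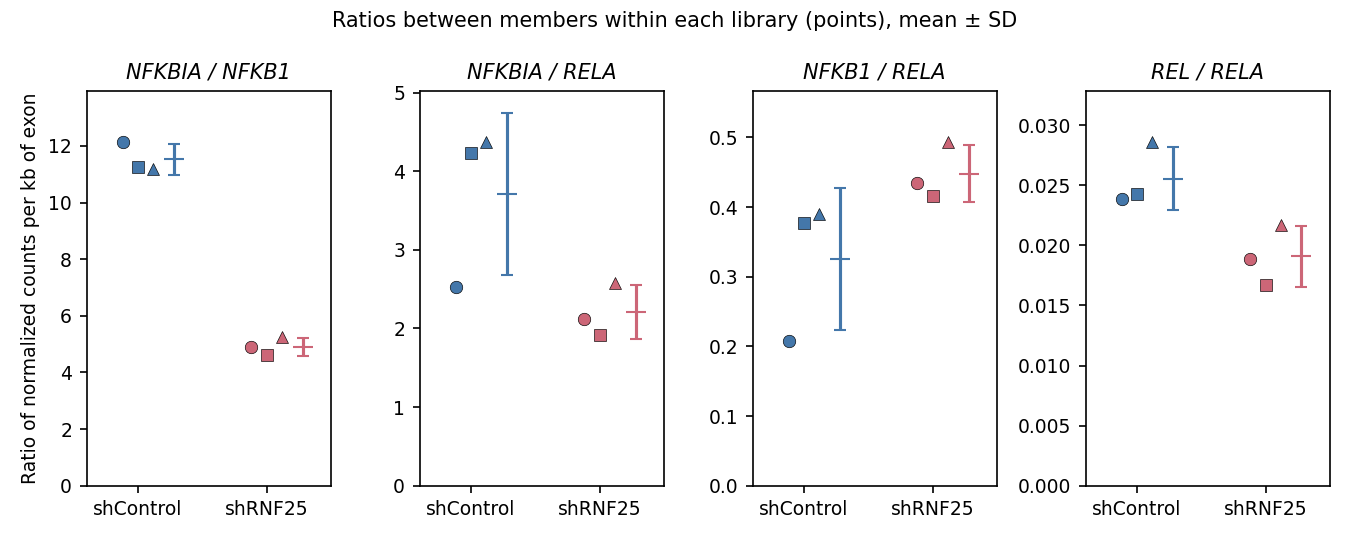
Ratios of levels per kilobase of exon within each library (vertical axes), with 1 point per library for shControl and shRNF25. NFKBIA per NFKB1 lies between 11.2 and 12.1 in shControl and between 4.61 and 5.24 in shRNF25, whereas NFKBIA per RELA overlaps because of shControl 1 at 2.52.

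The other NF-κB pathway genes, 37 in all and grouped by role, were counted in the same fit. All were tested, 7 were called lower, 2 higher and 28 were not called. Of all tested genes 10.8% were called lower and 10.5% higher. The median log2 fold change was −0.11 over the 37 genes, against −0.01 over all tested genes. The further IκB-like and nuclear regulators were NFKBID, NFKBIL1, NKRF, COMMD1, PDLIM2, TRIP4 and LRPPRC. The group is mixed, with TRIP4 and LRPPRC listed as binding candidates of the study and not as IκB-like genes. Of these 7 genes only NFKBID, which encodes the nuclear IκBNS, was called. NFKBID was measured at 155, 203 and 173 in shControl and at 52.8, 67.4 and 87.7 in shRNF25, a log2 fold change of −1.36 (SE 0.211, limma adjusted p = 0.00244). TRIP4, a transcriptional coactivator and the partner of RNF25 in the study, was measured at 369, 329 and 403 in shControl and at 349.9, 384 and 311 in shRNF25, and was not called (log2 fold change −0.08, limma adjusted p = 0.730). Its direction was lost when shRNF25 3 was left out (log2 fold change 0.0032).

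Of the 11 IKK and upstream kinases 2 were called lower, 1 higher and 8 were not called. Among all tested genes 10.8% were called lower and 10.5% higher. MAP3K8 (TPL2, which is bound by p105) and IKBKE (the inducible IKKε) fell, with log2 fold changes of −1.21 and −1.01 (limma adjusted p = 0.000864 and 0.000592). IKBKB, the IKKβ kinase that phosphorylates the cytoplasmic IκB proteins, rose from 707, 764 and 749 to 1094, 919 and 987 (log2 fold change 0.43, SE 0.112, limma adjusted p = 0.0244). The rise of IKBKB was no longer called with the replicate number as a block (adjusted p = 0.0600) or without any of the shRNF25 libraries. None of the 5 genes of the ligase complex that degrades IκB proteins (BTRC, FBXW11, CUL1, SKP1 and RBX1) was called, by limma at adjusted or unadjusted p below 0.05, by edgeR or by DESeq2. In limma 21.3% of all tested genes were called. At an unadjusted p below 0.05, 18% of all tested genes were lower and 17.3% higher.

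Of the 14 ubiquitin regulators 4 were called lower and 1 higher, where 10.8% and 10.5% of all tested genes were. TNFAIP3, the A20 deubiquitinase that restrains IKK activation, fell from 3857, 3373 and 4128 in shControl to 810.0, 743 and 944 in shRNF25. Its log2 fold change of −2.19 (SE 0.127, limma adjusted p = 1.64e-05) was the largest fall of the 37 genes. TNIP1 (ABIN1), which binds A20, fell from 12627, 11439 and 13671 to 3330.4, 3345 and 3388 (log2 fold change −1.90, SE 0.104, limma adjusted p = 1.11e-05). BIRC3 (cIAP2) fell as well (log2 fold change −1.18, limma adjusted p = 0.000479). The deubiquitinase CYLD passed narrowly (−0.44, adjusted p = 0.0381) and was lost under 9 of 16 alternatives, among them without shControl 2 and without any of the shRNF25 libraries, with adjusted p-values up to 0.184. RIPK1, the kinase scaffold of the TNF receptor complex, rose from 547, 577 and 530 to 841, 749 and 885 (log2 fold change 0.58, SE 0.114, limma adjusted p = 0.00729). RIPK1 was not called without shRNF25 1 or 3 (adjusted p up to 0.0615).

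**Figure D4:**
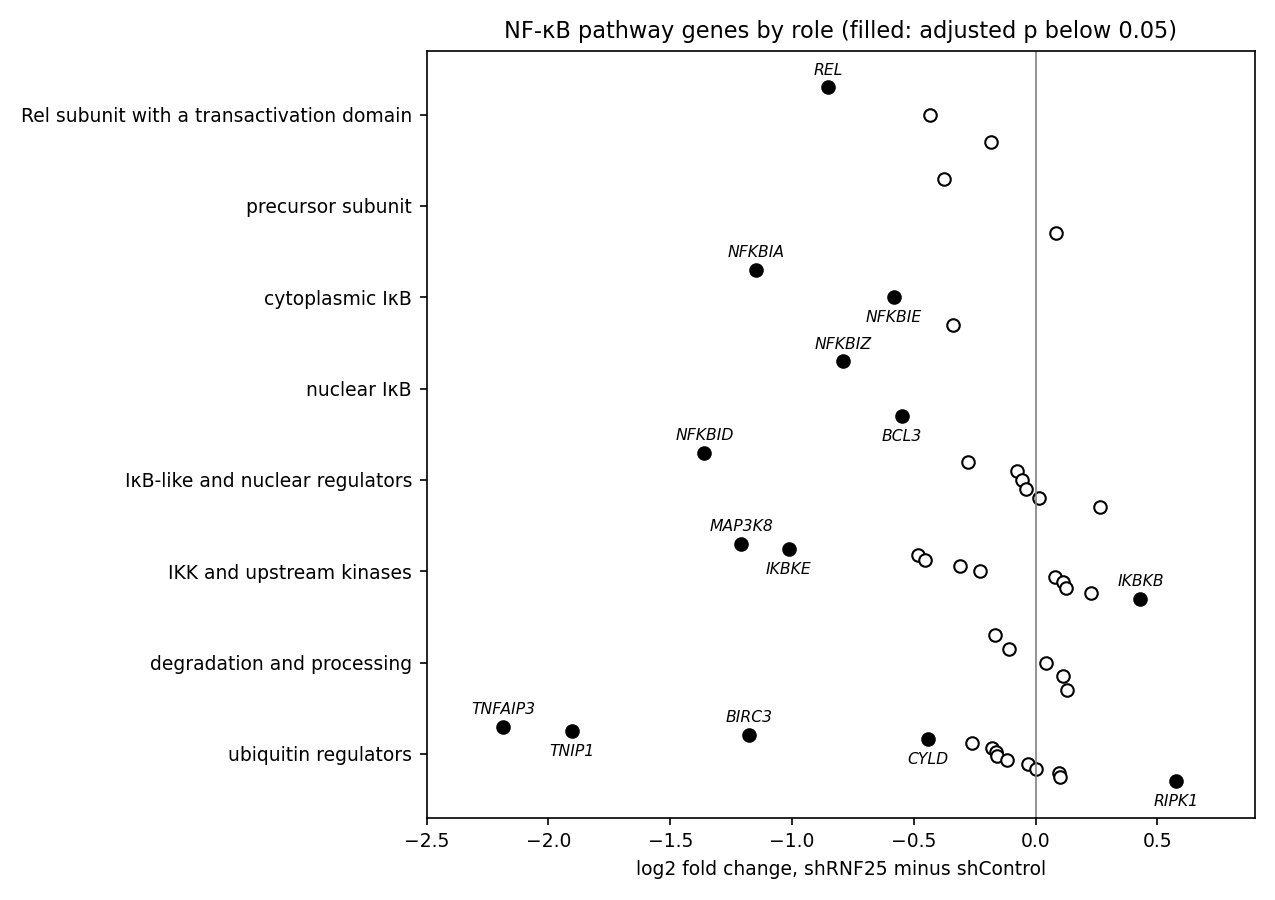
Log2 fold change, shRNF25 minus shControl (horizontal axis), of the 10 NF-κB and IκB genes and 37 other pathway genes by role (vertical axis), with filled and named points for genes that passed the test. The degradation genes hold no filled point, and TNFAIP3 and TNIP1 lie farthest to the left at −2.19 and −1.90.

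The genes whose pattern over the 6 libraries was most like that of NFKBIA were, by Pearson correlation of log2 values among genes with a mean normalized count of at least 100, RGMB (0.997), PI4KAP1 (0.995) and AREL1 (0.995). PI4KAP1 is a pseudogene whose reads may be shared with its parent gene. For RELA they were PRKAG1 (0.996), ASAP1 (0.995) and TAF1D (0.995). Such likeness was common, since 473 genes correlated with NFKBIA above 0.95 and 446 with RELA, and the 6 points share the group difference and the scaling of the libraries. The RELA-like genes shared its high value in shControl 1, with ASAP1 at 8653 there and at 5141 and 5771 in shControl 2 and 3.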

How the data were processed

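Total RNA from SW839 cells, depleted of ribosomal RNA, was sequenced from stranded libraries. The authors deposited normalized counts (a signal of reads divided by a scaling factor) for 30267 genes. The factor was 0.905, 0.975 and 0.927 in shControl 1, 2 and 3 and 1.10, 1.08 and 1.05 in shRNF25 1, 2 and 3. It was thus higher in every shRNF25 library, and scaling to total reads was not tried. The submitters' processing notes name fastp, HISAT2, HTSeq and GRCh38, and the study's methods name DESeq2. The annotation and strand setting are not given in the sources used here. Whole reads were recovered for 100% of values within 0.01 reads (largest deviation 0.000212), and the scaling equaled DESeq2's size factors.

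Values were taken as log2(normalized count + 1). Genes with at least 10 in at least 3 libraries were compared with limma 3.58.1 (lmFit, eBayes with trend) in R 4.3.3 without covariates, with Benjamini-Hochberg adjustment, and 3525 of 16554 genes were called. On the recovered reads edgeR 4.0.16 called 3526 genes and DESeq2 1.42.0 called 3875. Exact permutation tests used scipy 1.17.1. Positions and exon lengths came from GENCODE 29, and promoters from RefSeq. Alternatives were other pseudocounts, filters and scalings, both count tools, a replicate block, library weights by group, each library left out in turn, and a fold of at least 1.5.

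The 10 genes, the 37 pathway genes and the markers were chosen with earlier results of these data known. All 10 were described, with RNF25 and TRIP4. From the pathway list, the 3 largest falls and up to 3 largest rises among called genes were named, with any counted to 5 or fewer. The other experiments of the study were not analysed here.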

Additional observations from a re-analysis of the deposited data

How the results depend on the processing

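NFKBIA and NFKBIZ were lower and called under all 16 alternatives. REL, NFKBIE and BCL3 kept their direction under all of them and lost the call in some when a library was left out. Leaving out each library in turn gave between 2 and 8 lower genes among the 10, between 826 and 2915 lower and between 611 and 2614 higher genes among all tested, and between 0 and 3 higher pathway genes. The high ends came without shControl 1, and fewer samples were tested in each of these fits. A fold of at least 1.5 left 3 lower genes among the 10, 1175 lower genes among all tested and 0 higher pathway genes. TRIP4 ranged from −0.15 to 0.0032 when a library was left out, and the cause of the change in sign was not tested. Deviations from the group means of the same-numbered libraries correlated at −0.06, −0.09 and 0.05, and those of differently numbered libraries between −0.14 and 0.18. Groups of 3 libraries are too small for these values to exclude a pairing. With the replicate number as a block, 3084 genes were called, 2911 of them also without it, the 10 genes gave the same 5 calls, and 1 pathway gene instead of 2 was higher, IKBKB being lost (adjusted p = 0.0600), and 6 instead of 7 lower, CYLD being lost (adjusted p = 0.0637). The median log2 fold change of all tested genes was −0.01 as deposited, 0.0054 after quantile normalization and 0.05 after median ratio rescaling, which did not change the calls of the 10 genes.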

Other observations

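The subunits differed from each other in how shControl 1 compared with the other two controls. RELA was at 167% of the mean of shControl 2 and 3 in that library and REL at 149.5%. RELB was at 69.3%, NFKBIE at 70.3%, NFKBIB at 77.4% and NFKB2 at 79.1%. NFKBIA (97.7%), NFKBIZ (103%) and BCL3 (99.7%) were close to the other controls, and NFKB1 was at 90.3%. These are values of 1 library, given without a test. Markers of other cell types were also summed per library. Fibroblast markers summed to between 1108 and 1293 in shControl and between 873 and 1022 in shRNF25. Most of that sum was COL1A1, which fell from a mean of 1177 to 914 (limma adjusted p = 0.0479), whereas PDGFRA averaged 2.17 and 8.03 and PDGFRB 5.26 and 8.08 in shControl and shRNF25, and COL1A2 and DCN had 3 reads or fewer in every library. Endothelial markers summed to between 489 and 695 in shControl and between 494 and 645 in shRNF25. Most of it was PECAM1, while CDH5 fell from 125 to 5.89 (log2 fold change −4.12, limma adjusted p = 0.000213) and KDR rose from 24.5 to 84.5 (1.78, limma adjusted p = 0.00116). The part of these markers in the results was not tested.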
